A study of Mus musculus with 2 samples.

Results

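Sprouty and Spred proteins are feedback inhibitors of receptor tyrosine kinase signalling, and 6 of their genes were followed here: Spry1, Spry2 and Spry4 of the Sprouty family, and Spred1, Spred2 and Spred3 of the Spred family. They are the 6 rows, of 33,696 genes in the count matrices, whose symbol is one of these names, and all 6 were found. The data are single-nucleus RNA sequencing of mouse hippocampus at postnatal day 19, with 1 library for each of 2 genotypes. The Control library came from Cicflox/flox mice, and the Knockout library from littermates of the genotype Emx1-Cre; Cicflox/flox, so that both groups carry the floxed allele of Cic and only the latter carries Cre. Cic encodes Capicua, and Emx1-Cre is a driver that recombines in the lineage of dorsal telencephalic progenitors, which gives rise to hippocampal excitatory neurons and to many astrocytes and oligodendrocytes, and which leaves cells of other origin, such as interneurons and microglia, with an intact allele. A library was made from 3 mice, namely 2 males and 1 female, with 1 frozen hippocampus taken from every animal and the tissue pooled. With 1 library per genotype the spread between mice cannot be estimated, so no difference below was tested, and every interval is a 95% interval for counting error only.

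Growth factors such as FGFs, neurotrophins and PDGFs bind receptor tyrosine kinases, which act through adaptor proteins and Ras on the kinases Raf, MEK and ERK. ERK activity raises transcription of Sprouty and Spred genes, and their products act back on the same route. Spred proteins bind neurofibromin, a protein that speeds GTP hydrolysis by Ras, and bring it to the membrane, while Sprouty proteins interfere with signalling between the receptor and Raf. Capicua is a DNA-binding repressor that ERK signalling inactivates, and Etv1, Etv4 and Etv5, together with Sprouty and Spred genes, are textbook examples of what it represses.

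The start regions of 5 of the 6 genes were taken by symbol from RefSeq (GRCm38.p6). They are windows of 300 bases, from 250 before to 50 after the start site. Spry4 was left out of this search, so whether its start region holds any of the octamers below was not tested. The RefSeq table used here has another build than the deposited counts. Each window was searched on both strands for the Capicua octamers TGAATGAA, TGAATGGA, TCAATGAA and TCAATGGA, at least 1 of which lies in 3.835% of 32,851 such windows. Spred3 and Spry2 hold 1 match each, and Spry1, Spred1 and Spred2 hold none. The ETS octamers CCGGAAGT and CAGGAAGT, found in 7.065% of windows, match in none of the 5. The sequences of Spred3 and Spry2 are printed because they hold the matches, in genes that differed between the libraries in opposite directions in dentate granule-like nuclei. Spred1 is printed because it was also higher there and has no match. Sequences run 5′ to 3′ on the strand of the gene, and capitals mark the octamer.
Spred3, chr7:29168598-29168897, minus strand: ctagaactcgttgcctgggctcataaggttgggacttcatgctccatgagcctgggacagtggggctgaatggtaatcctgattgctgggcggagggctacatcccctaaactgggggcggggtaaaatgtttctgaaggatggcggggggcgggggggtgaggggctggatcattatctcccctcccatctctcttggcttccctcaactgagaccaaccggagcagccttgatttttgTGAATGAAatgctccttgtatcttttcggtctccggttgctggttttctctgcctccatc
Spry2, chr14:105896770-105897069, minus strand: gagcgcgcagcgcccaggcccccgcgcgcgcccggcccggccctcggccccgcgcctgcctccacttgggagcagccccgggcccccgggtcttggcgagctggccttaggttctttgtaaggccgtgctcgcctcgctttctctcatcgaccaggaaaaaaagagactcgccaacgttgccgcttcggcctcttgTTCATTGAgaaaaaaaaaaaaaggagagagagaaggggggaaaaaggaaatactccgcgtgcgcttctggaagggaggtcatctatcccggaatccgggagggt
Spred1, chr2:117120821-117121120, plus strand: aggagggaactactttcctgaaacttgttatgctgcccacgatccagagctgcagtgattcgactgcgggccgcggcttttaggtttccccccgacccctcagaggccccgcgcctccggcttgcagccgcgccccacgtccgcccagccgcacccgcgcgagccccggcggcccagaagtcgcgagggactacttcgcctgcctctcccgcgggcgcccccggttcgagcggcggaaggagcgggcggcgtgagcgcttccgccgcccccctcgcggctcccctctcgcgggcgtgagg
In Spred3 the octamer TGAATGAA reads along the gene and covers positions −10 to −3, with the start base counted as 0. In Spry2 the octamer TCAATGAA lies on the other strand, so that the printed letters are TTCATTGA, at positions −54 to −47. A match describes the letters of a window and is not evidence of binding.

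The Control library held 314,453,640 UMIs in 25,907 barcodes and the library labelled Knockout 252,995,761 UMIs in 23,207 barcodes, and 175 barcodes occurred in both. After filters, 21,865 and 20,531 nuclei were used, with medians of 9790 and 8766 UMIs. Clusters were named from marker genes and carry the ending "-like", and 15 classes had at least 100 nuclei in each library. Clusters left without a name held 8.50% of Control nuclei and 10.04% of nuclei labelled Knockout. The level of Cic itself showed no decrease with the label Knockout: dentate granule-like nuclei had 485 and 465 UMIs of Cic, a log2 ratio of 0.44 (0.25 to 0.62). The labels do not say which exons the floxed allele loses, so counts from the 3′ end of the transcript do not check the genotype, and directions below are given for the library labelled Knockout. Levels are CPM, the usual scaling of the UMIs of a gene to all UMIs of that class and library. A log2 ratio is Knockout over Control, computed after 0.5 UMI was added to both sums. The term past 2-fold is kept for genes with a minimum of 50 UMIs and 10 CPM in whichever library was higher, and it describes size without a test.

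Across the 15 classes the 6 genes made 90 pairs of gene and class, of which 55 reached the minimum. In 14 of these the gene was at least 2-fold higher in the library labelled Knockout, and in 1 it was at least 2-fold lower. Among all genes with the minimum, the share past 2-fold higher ran from 0.0796% to 2.68% over the 15 classes. The share past 2-fold lower ran from 0.0106% to 1.72%. Spred3 gave 9 of the 14, Spred1 gave 3 and Spred2 gave 2, and the lower value was Spry2 in dentate granule-like nuclei. Called values closest to 2-fold were Spred1 in dentate granule-like nuclei, at 1.10, and Spred2 in Cajal-Retzius-like nuclei, at 1.13. Just outside were Spred2 in oligodendrocyte-like nuclei, at 0.99, and Spred2 in cycling progenitor-like nuclei, at 0.74. Spry4 met the joint minimum of UMIs and CPM in 2 classes only, and it is described with a minimum of 20 UMIs. Over all nuclei used in the named classes and outside them, Spred3 went from 4448 UMIs (17.2 CPM) to 9778 (45.4 CPM) and Spry4 from 739 (2.85 CPM) to 1857 (8.61 CPM). Spred1 went from 105 to 140 CPM, Spred2 from 139.9 to 166 CPM, Spry2 from 17.4 to 14.8 CPM and Spry1 from 3.71 to 3.59 CPM.

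Spred3, the most divergent of the Spred proteins, was higher in the library labelled Knockout in all 15 classes, by log2 ratios from 0.20 to 3.58 with a median of 1.21. The counting interval lay above 0 in 14 classes, microglia-like nuclei being the exception unless a cluster of 27 nuclei from the Control alone was left out, and 9 of the 13 classes that reached the minimum were past 2-fold. The sign was the same in female and in male nuclei in 15 of 15 classes. Since 1 animal of a pool was female and 2 were male, this splits the pool and makes no replicates.

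In dentate granule-like nuclei Spred3 had 480 UMIs (8.95 CPM) in the Control, against 2118 UMIs (55.8 CPM) in the library labelled Knockout, for a log2 ratio of 2.64 (2.50 to 2.79). Of 8418 genes with the minimum in this class, 2.32% were past 2-fold higher and 1.09% past 2-fold lower. Of the 4 genes followed here that had it, Spred1 and Spred3 were past 2-fold higher and Spry2 past 2-fold lower. The ratio of Spred3 was 2.85 in female and 2.42 in male nuclei. The class consists of 2 clusters with unequal shares of the libraries. The cluster led by Dsp, Trpc6 and Glis3 held 3464 Control and 128 Knockout nuclei, and the cluster led by Bmp6 held 892 and 3227. Within them the log2 ratio of Spred3 was 2.46 and 2.61, in that order. The difference was thus seen within each cluster, although only 128 Knockout nuclei fell in the former.

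The share of dentate granule-like nuclei with at least 1 Spred3 UMI was 10.0% (9.13 to 10.9) in the Control, against 44.6% (43.0 to 46.4) in the library labelled Knockout. Thinning each nucleus to 2000 UMIs, which sets depth equal, gave 1.70% and 9.97%, where the unthinned medians were 11,800 and 10,874 UMIs. Microglia-like nuclei, the class with the fewest Spred3 UMIs per nucleus, had a UMI in 1.71% and 2.50% of nuclei at medians of 2152.5 and 1721 UMIs. Thinned to 2000 UMIs their shares were 2.10% and 2.31%, over the 857 and 519 microglia-like nuclei deep enough, with 665 and 959 left out, so that the thinned Control share of granule nuclei was not above that of microglia-like nuclei, while the Knockout share was. Among nuclei with a UMI, the mean number of Spred3 UMIs per granule nucleus was 1.10 in the Control, against 1.41 in the library labelled Knockout.

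Immature dentate granule-like nuclei had nearly the same Spred3 levels as mature ones in each library. There were 153 UMIs (10.4 CPM) in the Control, against 766 UMIs (58.2 CPM) in the library labelled Knockout, for a log2 ratio of 2.49 (2.24 to 2.75), and 2.47 in female and male nuclei alike. Only 0.362% of 9393 genes were past 2-fold higher in this class, and Spred3 was the 1 gene among the 3 with the minimum that was. In this class 14 inhibitory markers summed to 391 and 538 CPM, with 7 of 14 higher. The 9 immature dentate granule markers summed to 2629 and 2610 CPM, with 7 of 9 higher. The part of these markers was not tested.

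Pyramidal neuron classes had higher Control levels of Spred3 and smaller ratios. CA3-like nuclei had 514 UMIs (17.3 CPM) and 974 UMIs (40.3 CPM), a log2 ratio of 1.21 (1.06 to 1.37), where 1.23% of 8192 genes were past 2-fold higher and 0.366% lower. In CA3-like nuclei 9 immature dentate granule markers summed to 94.6 and 126 CPM, with 4 of 9 higher. There, 8 CA1 markers summed to 134 and 176 CPM, with 3 of 8 higher, and 10 CA3 markers to 2050 and 2136 CPM. The part of these markers was not tested. CA1-like nuclei had 1056 UMIs (19.7 CPM) and 1971 UMIs (46.8 CPM), a log2 ratio of 1.25 (1.14 to 1.36), where the shares were 2.68% and 0.611% of 8343 genes. The interval of the ratio for dentate granule-like nuclei lay above those of CA3-like and CA1-like nuclei. The 2 CA1-like clusters had log2 ratios of 1.01 and 1.58, the larger in the cluster led by Dcn. In the class as a whole 9 immature dentate granule markers summed to 70.6 and 127 CPM, with 6 of 9 higher. The 7 Cajal-Retzius markers summed to 10.7 and 32.9 CPM, with 6 of 7 higher. The 8 CA1 markers summed to 1289 and 1070 CPM, with 2 of 8 higher. The part of these markers in the Spred3 result was not tested. Another 2 clusters nearest to CA1, with 533 and 181 Control nuclei and 474 and 346 Knockout nuclei, stayed unnamed because their mean marker fold was under 0.5 on the log2 scale and are not in these sums. In CA2-like nuclei, with 145 and 122 nuclei, Spred3 had 67 UMIs (19.0 CPM) and 106 UMIs (42.1 CPM), a ratio of 1.14 (0.69 to 1.61) against 2.28% of genes past 2-fold higher. That value was 0.51 in male nuclei, 0.69 after thinning and 0.99 with TMM factors, all short of 2-fold. In CA2-like nuclei 9 immature dentate granule markers summed to 70.3 and 135 CPM, with 4 of 9 higher, and 7 CA2 markers to 304 and 315 CPM, and their part was not tested. Subicular or cortical excitatory-like nuclei had 25.4 and 39.4 CPM, a ratio of 0.63, short of 2-fold, where 1% of genes were past it. Female nuclei of that class gave 1.86, above 2-fold in size, and male nuclei 0.34.

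In oligodendrocyte-like nuclei Spred3 was lowest among the Control classes and had its largest ratio, a rank that was lost with called doublets kept. There were 34 UMIs (3.69 CPM) in the Control, against 342 UMIs (44.8 CPM) in the library labelled Knockout, for a log2 ratio of 3.58 (3.09 to 4.15), with 4.07 in female and 3.18 in male nuclei. Of 8095 genes in this class 2.25% were past 2-fold higher and 1.15% lower, and Spred1 and Spred3 were the 2 of 3 genes with the minimum that were. A Spred3 UMI was found in 2.96% of Control and 28.9% of Knockout nuclei, and in 0.633% and 7.85% after thinning to 2000 UMIs. The 2 clusters of the class, led by Prr5l and by Tnni1, gave ratios of 3.94 and 2.92. With called doublets kept and clustered along, the ratio for the class was 2.20, below the 2.66 of dentate granule-like nuclei under the same setting. Markers of other cell types moved in this class as well. The summed level of 9 astrocyte markers was 186 and 266 CPM, with 5 of 9 higher. That of 10 CA3 markers was 206 and 321 CPM, with 8 of 10 higher. The sum of 11 dentate granule markers was 6157 and 4603 CPM, with 3 of 11 higher, while 10 oligodendrocyte markers summed to 23,541 and 23,565 CPM. The part of these in the Spred3 result was not tested.

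**Figure D1:**
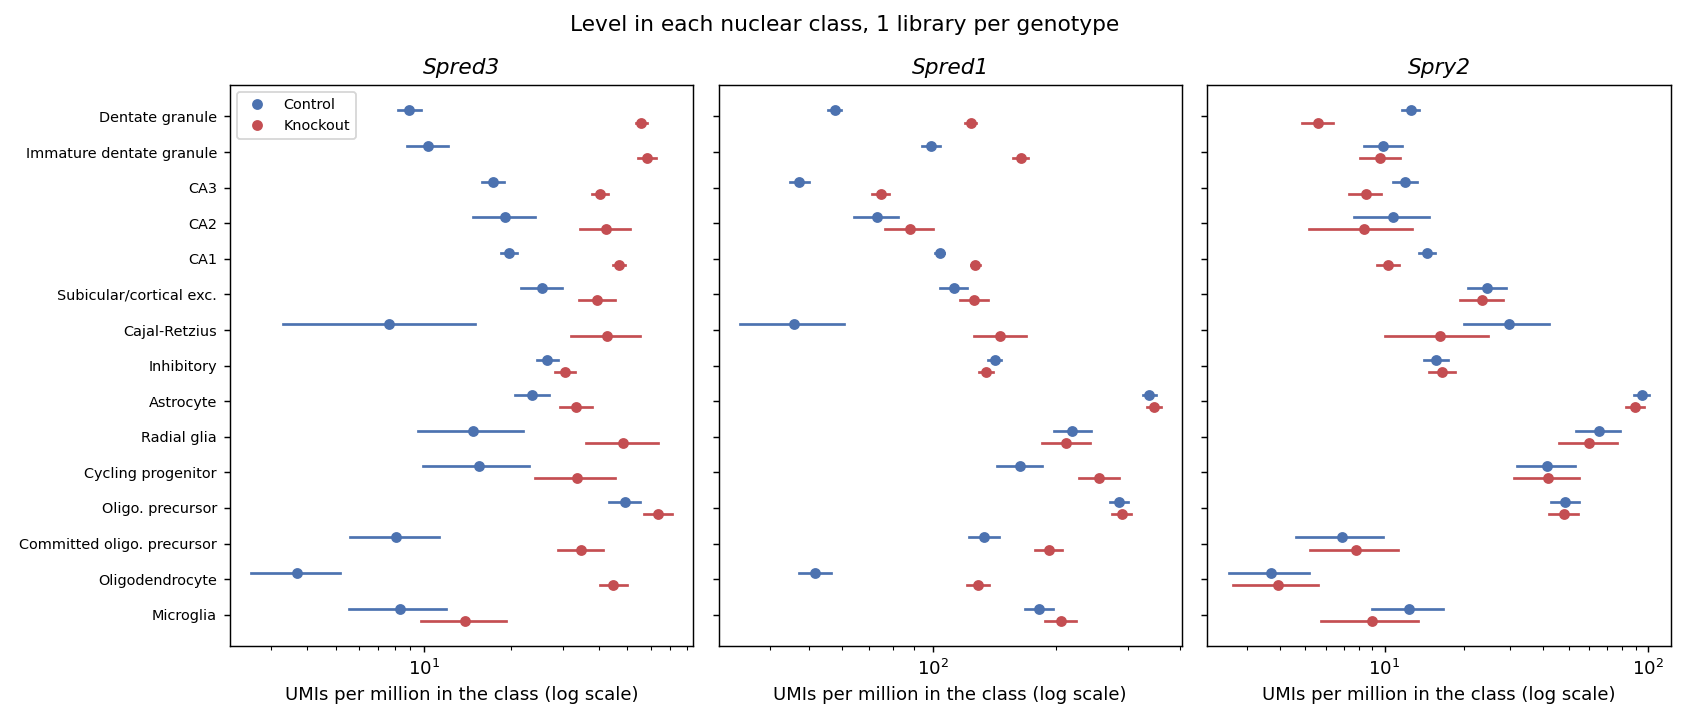
Levels of Spred3, Spred1 and Spry2 in 15 nuclear classes, in CPM on a logarithmic axis, Control in blue and Knockout in red, with exact Poisson 95% intervals. For Spred3, the classes span 3.69 to 48.9 CPM in the Control and 13.9 to 63.7 CPM in the library labelled Knockout.

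Ordered by level, Spred3 in the Control was highest in oligodendrocyte precursor-like nuclei, at 48.9 CPM, and lowest in oligodendrocyte-like nuclei, at 3.69 CPM, with a median over classes of 15.5 CPM. Intervals of neighbours in this order overlapped in 13 of 14 steps, the exception being the step from oligodendrocyte precursor-like down to inhibitory-like nuclei (26.6 CPM). In the library labelled Knockout the median was 42.1 CPM and the highest class was 4.59 times the lowest, against 13.3 times in the Control. There the only neighbours whose intervals stayed apart were inhibitory-like (30.6 CPM) and microglia-like nuclei (13.9 CPM), the 2 lowest classes.

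The smallest Spred3 ratios, with intervals still above 0, were in inhibitory-like and in oligodendrocyte precursor-like nuclei. Inhibitory-like nuclei had 586 UMIs (26.6 CPM) and 582 UMIs (30.6 CPM), a ratio of 0.20 (0.03 to 0.37). Oligodendrocyte precursor-like nuclei had 48.9 and 63.7 CPM, a ratio of 0.38 (0.14 to 0.62). Past 2-fold higher were 0.0796% of genes in the former class and 0.16% in the latter, and none of the 6 genes followed here. Astrocyte-like nuclei had 23.6 and 33.3 CPM, a ratio of 0.49 (0.23 to 0.76), with 1.07 in female and 0.20 in male nuclei, and 0.127% of genes past 2-fold higher. Radial glia-like nuclei had 25 and 51 UMIs (14.8 and 48.4 CPM), a ratio of 1.70 (0.99 to 2.46), where 0.35% of genes were past 2-fold higher, but male nuclei alone gave 0.81 and female nuclei 2.43. In that class 9 immature dentate granule markers summed to 307 and 390 CPM, with 8 of 9 higher, and 8 radial glia markers to 2544 and 2345 CPM, and their part was not tested. Cycling progenitor-like nuclei had 24 and 41 UMIs, under the minimum, with a ratio of 1.10, where 0.267% of genes were past 2-fold higher and 1.07% by a minimum of 20 UMIs alone. Microglia-like nuclei had 29 and 37 UMIs, a ratio of 0.73, and 0.94 (0.17 to 1.76) without the cluster of 27 Control nuclei, where 0.161% of genes were past 2-fold higher.

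Spred1, whose human counterpart is mutated in Legius syndrome, reached the minimum in 15 classes and was past 2-fold in 3 of them. Dentate granule-like nuclei held 3092 UMIs (57.6 CPM) in the Control, against 4693 UMIs (124 CPM) in the library labelled Knockout, for a log2 ratio of 1.10 (1.04 to 1.17). It was 0.97 in female nuclei, short of 2-fold, and 1.15 in male nuclei, and the 2 clusters of the class gave 1.08 and 1.04. A UMI was found in 42.0% and 69.7% of granule nuclei, and in 10.6% and 22.7% after thinning. Spred1 is also counted in microglia-like nuclei, at 182 and 205 CPM, so that class is no measure of free RNA for this gene.

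Oligodendrocyte-like nuclei had 476 UMIs (51.7 CPM) and 986 UMIs (129 CPM) of Spred1, a ratio of 1.32 (1.16 to 1.48), which was 0.72 with called doublets kept and so fell short of 2-fold there. Cajal-Retzius-like nuclei, an early-born neuron type that lies in the outer layers, had 48 UMIs (45.8 CPM) and 189 UMIs (146 CPM), a ratio of 1.66 (1.21 to 2.16). In that class 2.67% of 4490 genes were past 2-fold higher, and so were all 3 Spred genes, the only ones of the 6 with the minimum. Spred3 had 8 and 55 UMIs there (7.64 and 42.5 CPM), a ratio of 2.40 (1.40 to 3.76). In the same class 14 inhibitory markers summed to 104 and 245 CPM, with 7 of 14 higher. Of these, Erbb4 alone went from 22.9 to 160 CPM. Microglia markers, 9 in number, summed to 180 and 103 CPM, with 2 of 9 higher. The 7 Cajal-Retzius markers summed to 15,020 and 12,575 CPM, with 1 of 7 higher. The part of these markers in the Spred results was not tested. The other granule and pyramidal classes lay between: 0.73 in immature dentate granule-like nuclei, 0.66 in CA3-like nuclei, 0.29 in CA1-like nuclei and 0.27 in CA2-like nuclei.

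Spred1 was close between the libraries in the 3 classes with its highest Control levels and in inhibitory-like nuclei. Astrocyte-like nuclei had 337 and 346 CPM, a ratio of 0.04 (−0.04 to 0.11), and oligodendrocyte precursor-like nuclei 284 and 289 CPM, a ratio of 0.02 (−0.08 to 0.12). Radial glia-like nuclei followed, with a ratio of −0.05 (−0.29 to 0.20). Inhibitory-like nuclei had 141 and 135 CPM, a ratio of −0.07 (−0.14 to 0.01). Cycling progenitor-like nuclei, with a higher Control level than inhibitory-like nuclei, had 163 CPM (143 to 184) in the Control. In the library labelled Knockout they had 255 CPM (227 to 285), an interval apart from that of the Control. In the order of levels, astrocyte-like nuclei stood first in both libraries, apart from their neighbour, and the lowest class was Cajal-Retzius-like in the Control and CA3-like in the library labelled Knockout.

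Spred2, which like Spred1 has a domain that binds the receptor Kit, differed least of the Spred genes in granule neurons. Dentate granule-like nuclei, where its Control level was highest, had 9354 UMIs (174 CPM) and 6764 UMIs (178 CPM), a ratio of 0.03 (−0.01 to 0.08). The interval lies far inside 2-fold, and female and male nuclei gave −0.01 and 0.02. Pyramidal classes were somewhat higher in the library labelled Knockout, at 0.52 in CA1-like nuclei (154 and 220 CPM), 0.52 in CA2-like and 0.38 in CA3-like nuclei, all under 2-fold. CA1-like nuclei thereby held the highest Spred2 level in the library labelled Knockout, apart from the next class.

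Spred2 was past 2-fold in committed oligodendrocyte precursor-like and in Cajal-Retzius-like nuclei. Committed oligodendrocyte precursor-like nuclei, the stage between precursor and oligodendrocyte, had 40 UMIs (9.49 CPM) and 139 UMIs (37.4 CPM), a ratio of 1.97 (1.46 to 2.52), where 1.07% of 8106 genes were past 2-fold higher. Spred2 and Spred3, the latter with 34 and 129 UMIs and a ratio of 2.09 (1.55 to 2.69), were the 2 of 3 genes with the minimum past 2-fold in that class. The 2 clusters of the class held 332 and 208 Control nuclei and 370 and 163 Knockout nuclei, and gave Spred2 ratios of 1.78 and 2.32 and Spred3 ratios of 2.28 and 1.72, in that order. In the class 8 precursor markers summed to 2394 and 2954 CPM, with 6 of 8 higher, and 10 oligodendrocyte markers to 9117 and 8216 CPM, with 1 of 10 higher, and their part in these results was not tested. With called doublets kept, the Spred2 ratio there was 0.38 and the Spred3 ratio 1.43. Cajal-Retzius-like nuclei had 83 UMIs (79.3 CPM) and 225 UMIs (174 CPM), a ratio of 1.13 (0.76 to 1.51), which was 0.77 in female nuclei and 0.93 with doublets kept. Inhibitory-like nuclei were slightly lower in the library labelled Knockout, at 126 and 116 CPM, a ratio of −0.13 (−0.21 to −0.05).

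Along the oligodendrocyte classes the 6 genes were compared in each library separately. Of these 3 classes in the Control, precursor-like nuclei had the highest and oligodendrocyte-like nuclei the lowest level of all 6 genes, although the intervals of the 2 later classes overlapped for Spry1, Spry2, Spry4 and Spred2. Spred3 was 48.9 CPM in precursor-like, 8.07 CPM in committed precursor-like and 3.69 CPM in oligodendrocyte-like nuclei of the Control. In the library labelled Knockout the same classes had 63.7, 34.7 and 44.8 CPM, so precursor-like nuclei were 1.42 times oligodendrocyte-like nuclei, against 13.3 times in the Control. Spred1 had 284, 134 and 51.7 CPM in the Control and 289, 192 and 129 CPM in the library labelled Knockout. Spred2 had 109, 9.49 and 7.60 CPM in the Control and 114, 37.4 and 15.2 CPM in the library labelled Knockout. In precursor-like nuclei the intervals of the libraries overlapped for Spred1 and Spred2 but not for Spred3, at 43.2 to 55.2 and 57.1 to 70.9 CPM. Ratios were larger in both later classes than in precursor-like nuclei for these 3 genes. With called doublets kept, the ratio of Spred2 in committed precursor-like nuclei was only 0.38.

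Spry1 and Spry2 did not show that spread. Spry2 had 48.4, 6.88 and 3.69 CPM in the Control and 47.8, 7.80 and 3.93 CPM in the library labelled Knockout over the same classes. Spry1 had 36.4, 2.85 and 1.09 CPM and 40.8, 2.42 and 1.31 CPM. Both genes thus had log2 ratios from −0.21 to 0.27 in the oligodendrocyte classes, with intervals that include 0. Neither gene reached the minimum in committed precursor-like or oligodendrocyte-like nuclei. Spry1 was found in only 11 Control and 9 Knockout nuclei of the former and in 10 and 10 of the latter. These are too few to tell a 2-fold difference in Spry1 from none.

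**Figure D2:**
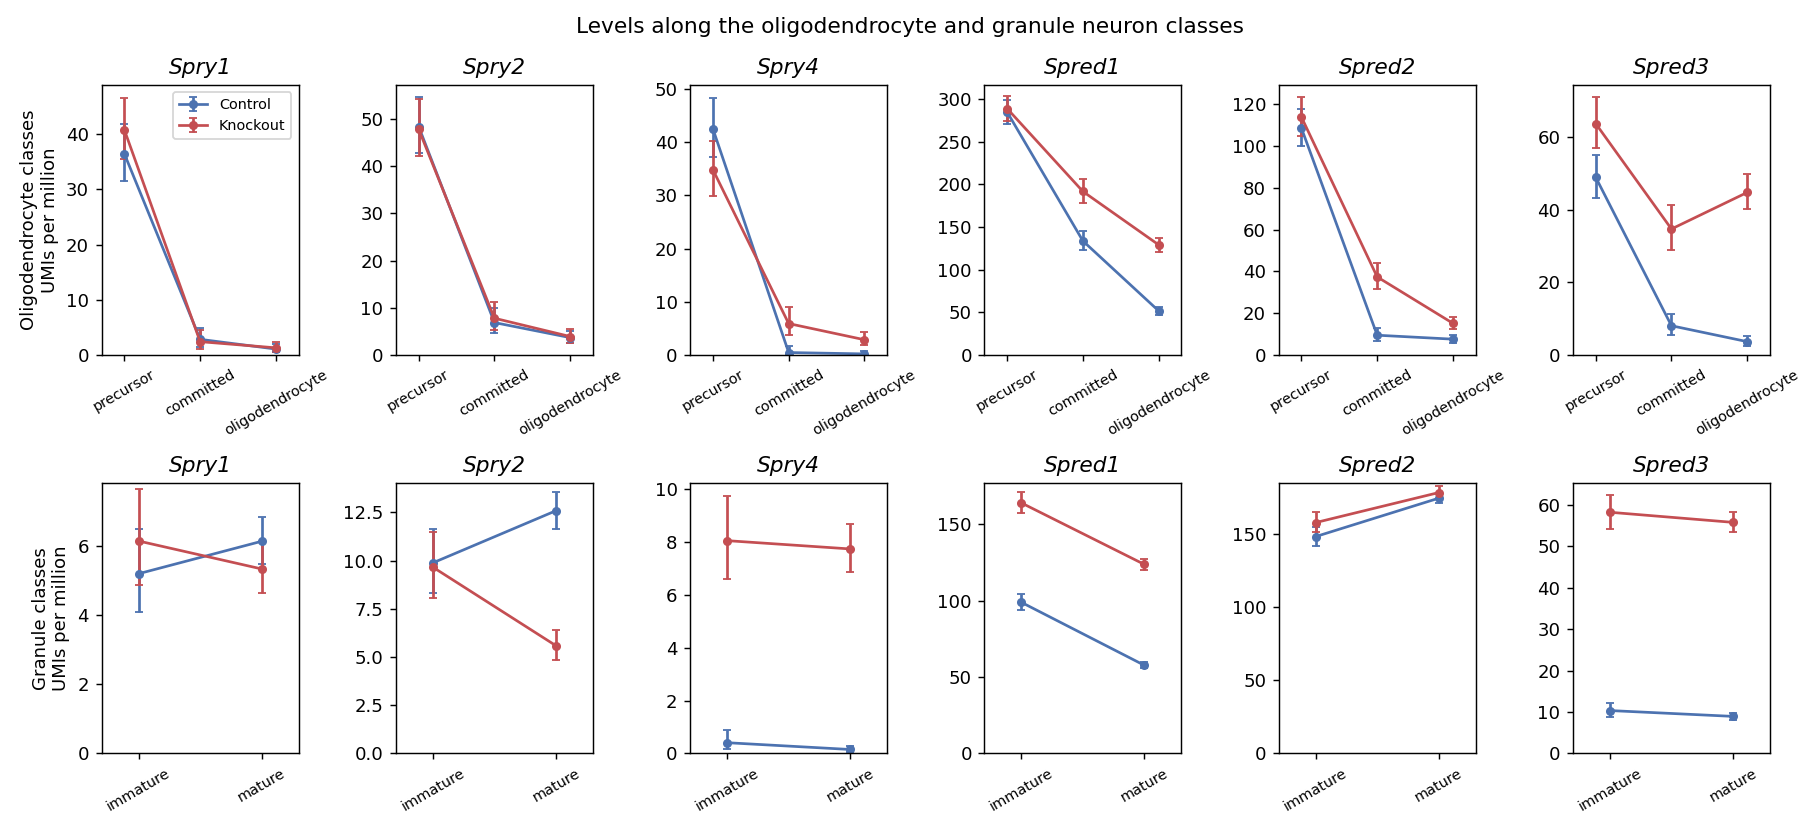
Levels in CPM along 3 oligodendrocyte classes (top) and 2 granule neuron classes (bottom), Control in blue and Knockout in red, with exact Poisson 95% intervals and lines that join classes of 1 library and are not a time course. Spred3 in oligodendrocyte-like nuclei stands at 3.69 CPM in the Control, against 44.8 CPM in the library labelled Knockout, while the lines of Spry1 and Spry2 lie on each other in the top row.

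Spry4, a Sprouty gene known as a target of FGF signalling, had the largest ratio of the 6 genes and the fewest Control UMIs. In dentate granule-like nuclei there were 8 UMIs (0.149 CPM) in the Control, against 294 UMIs (7.74 CPM) in the library labelled Knockout, for a log2 ratio of 5.61 (4.70 to 6.92). With the rule for sparse genes, at least 20 UMIs in the higher library and no CPM minimum, 3.42% of 16,533 genes in the class were past 2-fold higher. A UMI of Spry4 was found in 0.161% (0.0646 to 0.331) of Control and 7.93% (7.04 to 8.89) of Knockout granule nuclei. Microglia-like nuclei, which are shallower, had one in 0.263% and 0.474%. After thinning to 2000 UMIs the Knockout shares were 1.52% (1.14 to 2.00) in granule and 0.771% (0.210 to 1.96) in microglia-like nuclei, whose intervals overlapped. The 2 granule clusters gave ratios of 5.23 and 5.72, on 7 and 1 Control UMIs.

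Immature dentate granule-like nuclei had 6 UMIs (0.406 CPM) and 106 UMIs (8.06 CPM) of Spry4, a ratio of 4.20 (3.14 to 5.79), where 1.2% of genes were past 2-fold higher by the same rule. CA3-like nuclei had 31 UMIs (1.05 CPM) and 222 UMIs (9.18 CPM), a ratio of 3.11 (2.59 to 3.73) against 2.28% of genes. CA1-like nuclei had 94 UMIs (1.75 CPM) and 284 UMIs (6.74 CPM), a ratio of 1.94 (1.61 to 2.30) against 4.62% of genes, and 1.35 after thinning to 2000 UMIs. The intervals of mature granule, CA3-like and CA1-like nuclei did not overlap, in that descending order. The 2 CA1-like clusters differed, at 1.51 (1.08 to 1.95) and, in the cluster led by Dcn, 2.68 (2.08 to 3.39), and the latter interval overlapped that of CA3-like nuclei. CA2-like and subicular or cortical excitatory-like nuclei were past 2-fold by the same rule as well, on 26 and 31 Knockout UMIs, against 3.29% and 1.78% of genes.

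Oligodendrocyte-like and committed oligodendrocyte precursor-like nuclei each had 2 Control and 22 Knockout UMIs of Spry4, ratios of 3.44 (1.70 to 6.86) and 3.35 (1.62 to 6.77), against 2.72% and 1.74% of genes. With doublets kept the former was 1.92. The Knockout level of oligodendrocyte-like nuclei, 2.88 CPM (1.80 to 4.36), was not apart from that of microglia-like nuclei, 2.62 CPM (1.05 to 5.41), and the thinned share was 0.577% (0.188 to 1.34), against 0.771%. Committed precursor-like nuclei had 5.92 CPM (3.71 to 8.96), an interval that also overlapped that of microglia-like nuclei. Cajal-Retzius-like nuclei had 0 and 10 UMIs, at least 2.70-fold higher when the Control is set to the floor of 3 UMIs for the library. In all, Spry4 was past 2-fold higher in 8 of the 12 classes with 20 UMIs in the higher library, and lower in none. A class with few Control UMIs, such as the oligodendrocyte-like class with 2, entered the 12 only through its Knockout UMIs. The tally therefore describes these classes and gives no further support to the ratios.

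In the classes with its highest Control levels, and in inhibitory-like nuclei, Spry4 was not past 2-fold. Oligodendrocyte precursor-like nuclei had 231 UMIs (42.5 CPM) and 182 UMIs (34.8 CPM), a ratio of −0.29, with an interval of −0.58 to just under 0. Inhibitory-like nuclei had 136 UMIs (6.17 CPM) and 123 UMIs (6.46 CPM), a ratio of 0.07 (−0.30 to 0.43). Astrocyte-like nuclei had 99 UMIs (10.7 CPM) and 121 UMIs (16.4 CPM), a ratio of 0.62 (0.22 to 1.01), an interval above 0. Cycling progenitor-like nuclei had 25 and 34 UMIs, with a ratio of 0.77 (−0.01 to 1.59).

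**Figure D3:**
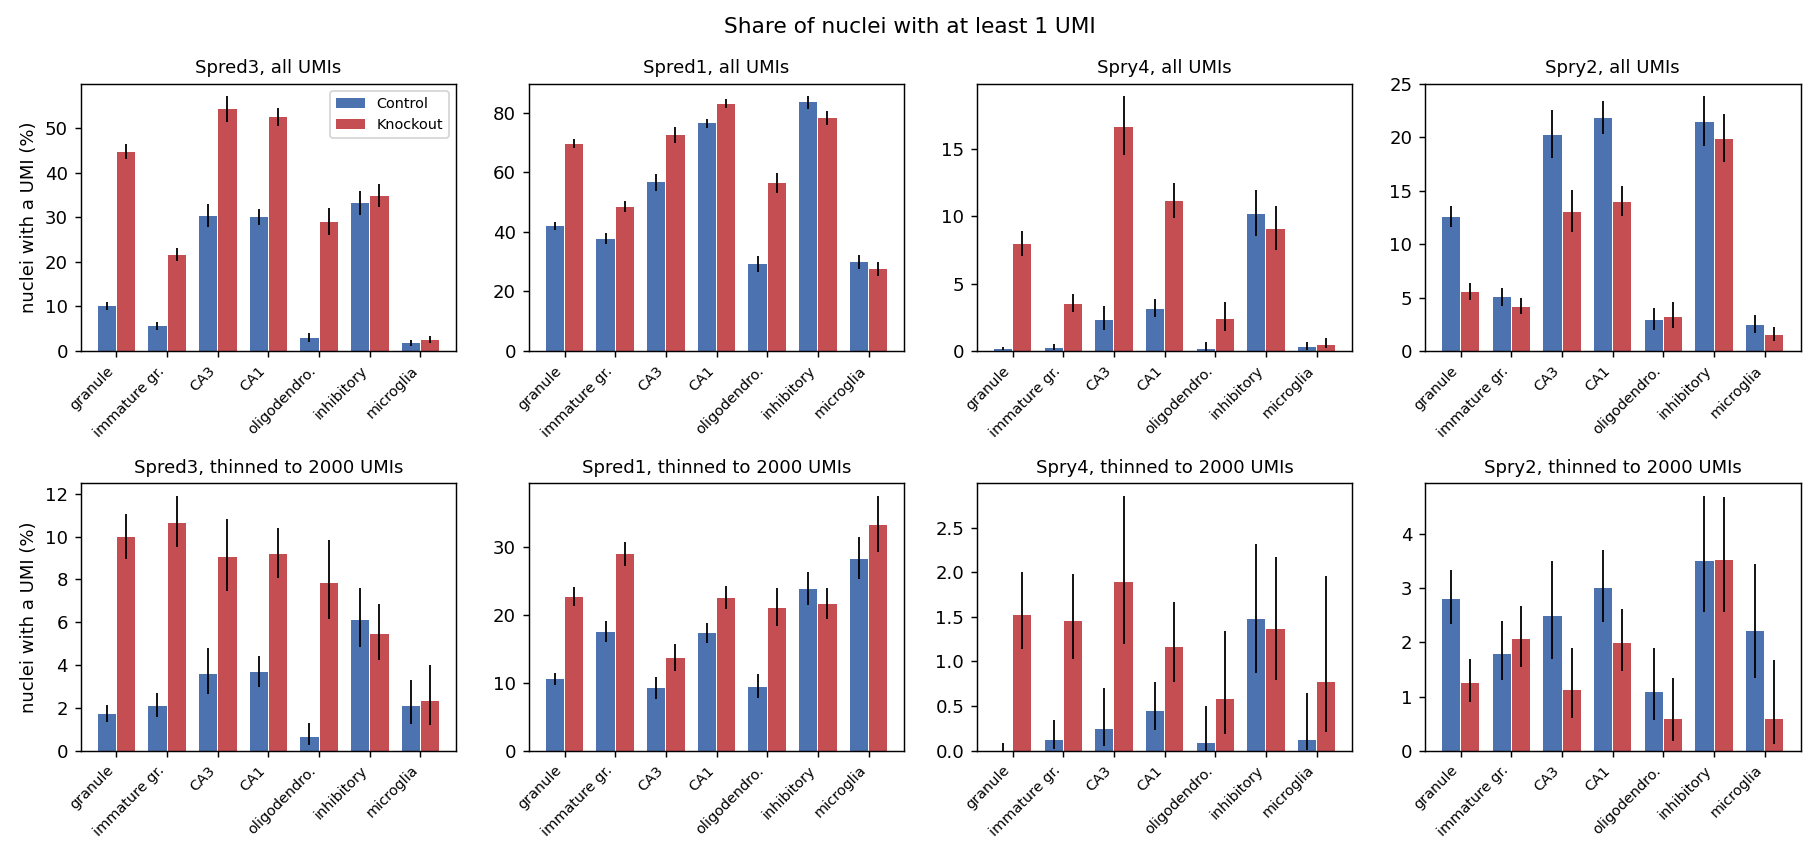
Share of nuclei with at least 1 UMI of Spred3, Spred1, Spry4 and Spry2 in 7 classes, from all UMIs (top) and after thinning each nucleus to 2000 UMIs (bottom), with exact binomial 95% intervals; Control in blue, Knockout in red. The thinned Spred3 share in dentate granule-like nuclei was 1.70% in the Control, against 9.97% in the library labelled Knockout, and the Spry2 share moved the other way.

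Spry2, the Sprouty gene with the most UMIs here, was the 1 gene past 2-fold lower. Dentate granule-like nuclei had 675 UMIs (12.6 CPM) in the Control, against 212 UMIs (5.58 CPM) in the library labelled Knockout, for a log2 ratio of −1.17 (−1.40 to −0.95). Female nuclei gave −1.60 and male nuclei −0.98, which is short of 2-fold. A UMI was found in 12.6% and 5.54% of nuclei, and in 2.80% and 1.25% after thinning, beside 2.22% and 0.578% of thinned microglia-like nuclei. The thinned intervals of granule and microglia-like nuclei of the Control overlapped, at 2.33 to 3.34% and 1.34 to 3.44%. Microglia-like nuclei had 12.3 and 9.0 CPM, and 9.86 CPM in the Control without a cluster of 27 nuclei from that library alone, while oligodendrocyte-like nuclei had 3.69 and 3.93 CPM. In the cluster led by Bmp6 the ratio was −1.25 (−1.57 to −0.91). In the cluster led by Dsp and Trpc6 it was −0.19 (−1.12 to 0.52) on 14 Knockout UMIs, which is too few to tell these apart. Immature dentate granule-like nuclei did not differ beyond counting error, with 9.88 and 9.65 CPM, a ratio of −0.03 (−0.39 to 0.32). In the library labelled Knockout the immature class was therefore 1.73 times the mature one, and in the Control 0.785 times.

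Spry2 was also lower in pyramidal classes, without reaching 2-fold. CA3-like nuclei had 354 UMIs (11.9 CPM) and 205 UMIs (8.48 CPM), a ratio of −0.49 (−0.75 to −0.24), with −1.02 in female and −0.25 in male nuclei. CA1-like nuclei had 14.5 and 10.4 CPM, a ratio of −0.48 (−0.66 to −0.31), and the cluster led by Dcn gave −0.92 against −0.19 in the other. Cajal-Retzius-like nuclei had 31 and 21 UMIs, a ratio of −0.86 (−1.74 to −0.02). The interval included 0 in the other 11 of 15 classes. Its highest level was in astrocyte-like nuclei, at 94.8 and 89.2 CPM, a ratio of −0.09, and inhibitory-like nuclei had 15.7 and 16.6 CPM, a ratio of 0.08 (−0.15 to 0.30).

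Spry1 was too sparse for most classes. Oligodendrocyte precursor-like nuclei, where it was highest in both libraries, had 198 UMIs (36.4 CPM) and 213 UMIs (40.8 CPM), a ratio of 0.16 (−0.12 to 0.45), and this was the 1 class with the minimum. Dentate granule-like nuclei had 330 UMIs (6.15 CPM) and 203 UMIs (5.35 CPM), a ratio of −0.20 (−0.46 to 0.05). The counting interval covered 0 in 13 of 15 classes. The exceptions were CA1-like nuclei, with 44 and 56 UMIs and a ratio of 0.70 (0.10 to 1.30), and astrocyte-like nuclei, with 24 and 7 UMIs and a ratio of −1.38 (−2.91 to −0.19). The latter was past 2-fold lower by the rule of 20 UMIs, as were 0.794% of genes there, but female nuclei gave 0.45 and male nuclei −1.98.

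Markers of other cell types differed between the libraries in the dentate granule-like class. The summed level of 8 CA1 markers was 169 CPM in the Control, against 74.7 CPM in the library labelled Knockout, with 0 of 8 higher in the latter. The sum of 7 neuroblast or intermediate progenitor markers was 42.6 and 75.5 CPM, with 5 of 7 higher, and that of 8 oligodendrocyte precursor markers 274 and 196 CPM, with 3 of 8 higher. The sum of 7 Cajal-Retzius markers was 8.52 and 48.4 CPM, with 4 of 7 higher, and that of 10 oligodendrocyte markers 215 and 165 CPM, with 0 of 10 higher. The sum of 11 dentate granule markers was 9171 and 8551 CPM. The part of these in the results for Spred3, Spred1, Spry4 and Spry2 was not tested.

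The rest of the pathway was taken from lists of ligands, receptors, adaptors, Ras regulators, kinases and other feedback inhibitors, chosen with earlier results of these data known. In dentate granule-like nuclei 2 of 15 ligands with the minimum were past 2-fold higher and 1 lower, where the shares of all genes were 2.32% and 1.09%. Fgf1 had 53 and 2013 UMIs, a ratio of 5.73, Fgf10 a ratio of 1.23, and Pdgfc a ratio of −1.21. Of 7 receptors, Egfr was lower, at −1.06, and none was higher. Of 10 adaptors, Shc3, a neuronal adaptor of receptor tyrosine kinases, was higher at 3.66 and Dok5 at 1.20. Of 13 Ras exchange factors and GAPs, Rasgrp1, which loads Ras with GTP, was lower at −2.87, from 1396 to 135 UMIs. None of 13 members of the Ras, Raf, MEK and ERK core was past 2-fold. Of 12 other feedback inhibitors and partners only Flrt2 was, at 1.29, and no dual-specificity phosphatase of that list was. The list of Capicua, its partners and ETS targets had 4 of 7 higher, namely Etv4 at 6.71, Etv5 at 5.94, Vgf at 1.93 and Etv1 at 1.86. Medians over list members that had 20 or more UMIs over the 2 libraries were −0.02 for ligands, −0.03 for receptors, 0.13 for adaptors, −0.21 for Ras regulators, −0.02 for the kinase core, 0.25 for other feedback inhibitors and 0.50 for the Capicua list. The 6 genes followed here had a median of 0.57, and all genes of the class one of 0.02.

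The shares of all genes past 2-fold higher in CA3-like nuclei, CA1-like nuclei and oligodendrocyte-like nuclei were 1.23%, 2.68% and 2.25%, and those lower 0.366%, 0.611% and 1.15%. In CA3-like nuclei 4 of 12 adaptors were past 2-fold higher, Gab1 at 2.92, Shc4 at 2.44, Shc3 at 1.67 and Dok5 at 1.27, and among 14 ligands Fgf1 was at 2.57 and Hgf at −1.04. In CA1-like nuclei 3 of 11 adaptors were, Shc4 at 2.62, Dok5 at 2.22 and Shc3 at 1.68, together with Fgf1 at 2.22 and Kitl at 1.90 among 13 ligands, of which Nrg2 was lower at −1.16. There, Fgfr1 at 1.12 was the 1 of 8 receptors past 2-fold and Rasgrf2 at 1.21 the 1 of 13 Ras regulators. In oligodendrocyte-like nuclei Shc3 was at 5.79 and Shc4 at 3.03 among 11 adaptors, and Rasal2, a Ras GAP, at 2.47. Pdgfa at 2.21 and Fgf1 at 1.07 were higher among 9 ligands there, Igf1r at 1.17 was higher and Kit at −1.04 lower among 8 receptors, and Ksr1 at −1.42 was the 1 of 11 core members past 2-fold. Of the list of Capicua, its partners and ETS targets, 4 of 6 were higher in CA3-like nuclei, Etv4 at 5.6, Etv5 at 2.90, Etv1 at 1.81 and Vgf at 1.14. In CA1-like nuclei 3 of 8 were higher, Etv4 at 5.71, Etv5 at 2.10 and Vgf at 1.21, and Egr1 was lower at −1.39. In oligodendrocyte-like nuclei 4 of 7 were higher, Etv5 at 5.23, Etv4 at 4.85, Etv1 at 2.16 and Atxn1 at 1.37. No other feedback inhibitor was past 2-fold in CA3-like, CA1-like or oligodendrocyte-like nuclei, of 10, 12 and 13 with the minimum. In inhibitory-like nuclei no gene of any of these lists was, where 0.0796% of all genes were past 2-fold higher and 0.0227% lower.

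Etv4, which encodes an ETS transcription factor, was set beside the members within nuclei of the library labelled Knockout. After thinning to 5000 UMIs, 1431 dentate granule-like nuclei had an Etv4 UMI and 1845 had none. Spred3 was found in 22.9% (20.8 to 25.2) of the former and 25.6% (23.6 to 27.6) of the latter. Spry4 was found in 4.82% (3.77 to 6.06) and 3.25% (2.49 to 4.17). Spred1 was found in 44.1% (41.5 to 46.7) and 45.4% (43.1 to 47.7). The intervals of nuclei with and without an Etv4 UMI overlapped for these 3 genes. They also overlapped for the other members, and in CA3-like, CA1-like and oligodendrocyte-like nuclei, with 1 exception. In CA1-like nuclei Spred2 was found in 61.2% (58.0 to 64.3) of 946 nuclei with Etv4 and in 68.2% (65.7 to 70.5) of 1460 without. Nuclei of 1 library share their source, and a nucleus without a UMI may still hold the transcript.

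Across classes, genes were ranked by how closely they followed each member, over 17,420 genes. Points share libraries and depth, and these correlations are descriptions. Over 30 points, 15 classes in 2 libraries, the level of Spry4 ran closest to Etv4 (Pearson r = 0.80), Etv5 (0.79) and Shc3 (0.79), and that of Spred3 to 9630014M24Rik (0.87), Shc3 (0.85) and Gm5820 (0.81). For the difference between libraries over 15 classes, Spred3 ran closest to Etv5 (0.92), Meak7 (0.87) and Shc3 (0.86), and Spry4 to Etv4 (0.88), 9630014M24Rik (0.85) and Per2 (0.83). Spry1 and Spry2, whose intervals included 0 in 13 and 11 of the 15 classes, reached values as high by the same measure, 0.88 with Tmem87b and 0.87 with Serinc2. Spred1 ran closest to 9630014M24Rik (0.90), Bcl2 (0.86) and Dlc1 (0.86). Among the members, the differences of Spred1 and Spred3 had an r of 0.82, of Spred1 and Spry4 0.79, of Spred3 and Spry4 0.70, and of Spry2 and Spry4 −0.56. Spred2 stood further off, with 0.45 against Spred1 and 0.46 against Spred3, and its closest genes were Pvt1, Megf11 and Lrp8.

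Spred3 overlaps Ggn on the opposite strand in GENCODE M21. Whether counting used strand is not given in the sources used here, so reads of the pair could be exchanged. Dentate granule-like nuclei had 0 and 4 UMIs of Ggn, and oligodendrocyte-like nuclei 1 and 6, beside 2118 and 342 Knockout UMIs of Spred3. No counted gene listed in that annotation overlaps the other 5 members there. The annotation is older than the mm39 counts, so counted genes missing from it could not be found this way.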

How the data were processed

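Values are unnormalized UMI counts of genes in nuclei, which the authors produced using Cell Ranger 8.0.1 per the file headers, on mm39 per the submitters' processing notes. The members and gene lists were chosen with earlier results of these data known. Nuclei with under 500 genes or over 5% mitochondrial UMIs, and Scrublet doublets (12.7% and 10.9% of filtered nuclei, expected rate 0.1), were left out. Both libraries were clustered together with scanpy 1.11.5 (3000 variable genes, 30 components, 15 neighbours, Leiden resolution 1, no batch correction). A cluster took the best of 22 fixed marker sets if 3 markers were raised by a log2 fold of 0.5, each in 10% of nuclei, with a mean log2 fold of 0.5. UMIs were summed per library and class. Intervals are exact Poisson for sums, conditional binomial for ratios and Clopper-Pearson for shares, and cover counting error only. Named genes are all members, Cic and Etv1, Etv4 and Etv5, up to 4 genes per list and class past 2-fold by size of ratio, and up to 3 genes per likeness measure. Sex was called from 2 Xist UMIs and 4 Y-linked genes, and 27.0% of Control and 25.0% of Knockout nuclei were left without a call. The scripts were tested on simulated data. Alternatives covered doublets, sex, scaling, depth, free RNA, clustering and minimums. Protein sequences were not analysed here.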

Additional observations from a re-analysis of the deposited data

Results flagged for a closer look

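The log2 ratio of Spry4, Knockout over Control, had opposite signs in 2 glial classes whose female and male nuclei each kept the sign of their class. It was 0.62 in astrocyte-like nuclei (0.81 in female and 0.64 in male nuclei) and −0.29 in oligodendrocyte precursor-like nuclei (−0.55 and −0.30). For Spred2 the same held between committed oligodendrocyte precursor-like nuclei, at 1.97 (2.32 in female and 2.95 in male nuclei), and inhibitory-like nuclei, at −0.13 (−0.23 and −0.06). Female and male nuclei do not make up a whole class, since 27.0% of Control and 25.0% of Knockout nuclei had no sex call. Control Spred2 in committed precursor-like nuclei was 6.51 CPM in female and 4.57 CPM in male nuclei, against 9.49 CPM in all. With called doublets kept, the Spred2 ratio of that class was 0.38. Neither difference between classes was tested, since each genotype is 1 library.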

How the results depend on the processing

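No member ratio past 2-fold changed sign under any alternative. Of 179 alternative values for the 15 ratios past 2-fold, 153 stayed within counting error and 10 came out under 2-fold. In dentate granule-like nuclei Spred3, at 2.64, was 2.85 in female nuclei, 2.42 in male nuclei and 2.83 with the lowest class subtracted as free RNA. Spred1 there, at 1.10, was 0.97 in female nuclei, 1.17 after thinning and 1.33 with the subtraction, and Spry2, at −1.17, was −1.60 in female nuclei. Spred3 in CA1-like nuclei, at 1.25, was 1.38 in female nuclei and 1.14 with TMM factors, and in CA3-like nuclei, at 1.21, it was 1.05 among males. In oligodendrocyte-like nuclei Spred3, at 3.58, was 2.20 with doublets kept, 3.07 when clustered without the members, lists and genes past 2-fold, and 4.79 with the subtraction, and Spred1, at 1.32, was 0.72, 1.59 in female nuclei and 2.12 with the subtraction. For Spred1 the subtraction is void, since its lowest class is Cajal-Retzius-like in the Control and microglia-like, which is no measure of free RNA for this gene, in the library labelled Knockout. The causes were not tested. Genes past 2-fold numbered 287, 131, 275 and 275 in dentate granule-like, CA3-like, CA1-like and oligodendrocyte-like nuclei, and 977, 548, 1049 and 652 with a minimum of 20 UMIs. With 100 UMIs and 20 CPM they were 81 in CA3-like nuclei and 179 in CA1-like ones. Female nuclei gave 250 in CA3-like nuclei, and oligodendrocyte-like nuclei gave 129 with doublets kept and 480 with the subtraction. In alternatives added after seeing the data, leaving out a microglia-like cluster of 27 Control nuclei and no Knockout nucleus took the count there from 164 to 58, and the Spred3 ratio in CA3-like nuclei was 1.14 without the cluster with no leading CA3 marker. Median-of-ratios factors shifted all ratios by −0.11 in CA1-like and 0.10 in oligodendrocyte-like nuclei. No paired analysis was possible because each genotype is 1 library. Spry1 and Spry4 had fewer than 10 CPM in most classes of each library.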
